A study of Mus musculus with 70 samples.

Results

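The CD45-negative cells of the adult mouse brain were compared with those of the first postnatal week by small RNA sequencing. The libraries compared were all those labelled as bulk from mice of 8 weeks (12 libraries) and from mice of postnatal day 6, P6 (10 libraries, without female mouse 6), which are 22 of the 70 libraries of the series. The 70 libraries cover 3 ages (P6, P15 and 8 weeks), both sexes and a pair of fractions of each brain. All mice were C57Bl/6 animals for which the labels name no treatment, and each library came from 1 mouse. Whole brains were dissociated, CD45-positive cells (the microglial fraction) were captured on antibody-coated dishes, and the CD45-negative cells left over make up the bulk fraction, which was described as mainly neurons, oligodendrocytes and astrocytes. The P6 group held 4 female and 6 male mice, and the 8 week group held 6 of each sex. The 12 bulk libraries of P15 served to place changes in time, and the 22 microglial libraries of the same mice served to ask whether a change differed between the fractions.

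MicroRNAs (miRNAs) are short RNAs, cut from a hairpin precursor, that guide Argonaute proteins to messenger RNAs and lower their translation and stability. Pairing relies chiefly on the seed, the stretch near the 5′ end of the miRNA, so miRNAs with one seed share many targets. Between the first postnatal week and adulthood the rodent brain ends most of its cell production, its oligodendrocytes wrap axons with myelin, its synapses mature and its ventricle walls acquire beating cilia.

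The results below turn on a few families, whose mature sequences are given first because shared seeds set them apart. Sequences are those of RefSeq (annotation of GRCm38.p6), which matched 830 of the 1019 annotated miRNAs tested and 207 of those called. Each is written 5′ to 3′ with the seed, bases 2 to 8, in capitals. The miR-29 family, which was higher at 8 weeks, shares one seed.
miR-29a-3p: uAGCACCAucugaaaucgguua
miR-29b-3p: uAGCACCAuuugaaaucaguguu
miR-29c-3p: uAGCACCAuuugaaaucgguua
The neuronal activity-regulated pair, also higher at 8 weeks, shares another.
miR-132-3p: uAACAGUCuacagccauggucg
miR-212-3p: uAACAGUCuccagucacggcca
The miRNAs of differentiating oligodendrocytes printed here, higher at 8 weeks too, have unrelated seeds.
miR-219a-5p: uGAUUGUCcaaacgcaauucu
miR-338-3p: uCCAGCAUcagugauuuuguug
Among the miRNAs that were lower at 8 weeks, the miR-17 family and the family of miR-130 and miR-301 each hold to one seed.
miR-17-5p: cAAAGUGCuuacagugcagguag
miR-20a-5p: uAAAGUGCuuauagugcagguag
miR-130a-3p: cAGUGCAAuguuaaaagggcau
miR-301a-3p: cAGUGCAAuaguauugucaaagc
The chromosome X miRNAs below were lower too, and the first of them carries the seed of the miR-15/16 family.
miR-322-5p: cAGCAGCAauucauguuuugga
miR-503-5p: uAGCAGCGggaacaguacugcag
Seeds were counted over the tested miRNAs with a matched sequence. Of the 16 seeds with at least 3 of these, many had 0 calls or 1 and could not show both directions. A single seed had calls in both, that of miR-34 and miR-449.
miR-34a-5p: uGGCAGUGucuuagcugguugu
miR-449a-5p: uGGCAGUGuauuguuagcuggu
miR-449c-5p: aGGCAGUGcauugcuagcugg

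Library totals ranged from 5979569 to 8747394 counts at P6 and from 3141193 to 6447373 counts at 8 weeks. Levels are given as CPM (counts scaled to a common library total), and 3 counts, taken as the floor of detection, corresponded to between 0.343 and 0.502 CPM at P6 and between 0.465 and 0.955 CPM at 8 weeks. The age groups stood apart on the first principal component of the 22 libraries, which held 58.8% of the variance (scores of -26.7 to -21.1 at P6 and of 18.6 to 21.7 at 8 weeks). The 10 most abundant miRNAs took 63.7% ± 1.84 of the counts at P6 (SD, n = 10) and 57.1% ± 1.60 at 8 weeks (SD, n = 12). The library of P6 female mouse 5 stood at the top of its group for miR-124-3p, miR-137-3p, miR-218-5p and miR-132-3p and at the bottom for miR-219a-2-3p, and some results are given with and without it.

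Of 1072 features tested, 142 (13.2%) were higher and 133 (12.4%) were lower at 8 weeks than at P6, together 275 (25.7%), by limma's TREAT test against a 2-fold change at a false discovery rate of 0.05. Adjusted p-values given for single miRNAs are from this test. The CPM ranges of the age groups did not overlap for 207 of the 275, and for 271 (25.3%) of all those tested. All 275 had a fold change of one sign in males and in females, while 84 lay under 10 CPM in both groups. The median log2 fold change of all tested features was 0.32, and scaling by library size alone, which set that median to 0.01, gave 101 higher and 177 lower calls, so the split into higher and lower depends on the scaling. Fewer cells of a type and less RNA per cell cannot be told apart in such bulk libraries.

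**Figure D1:**
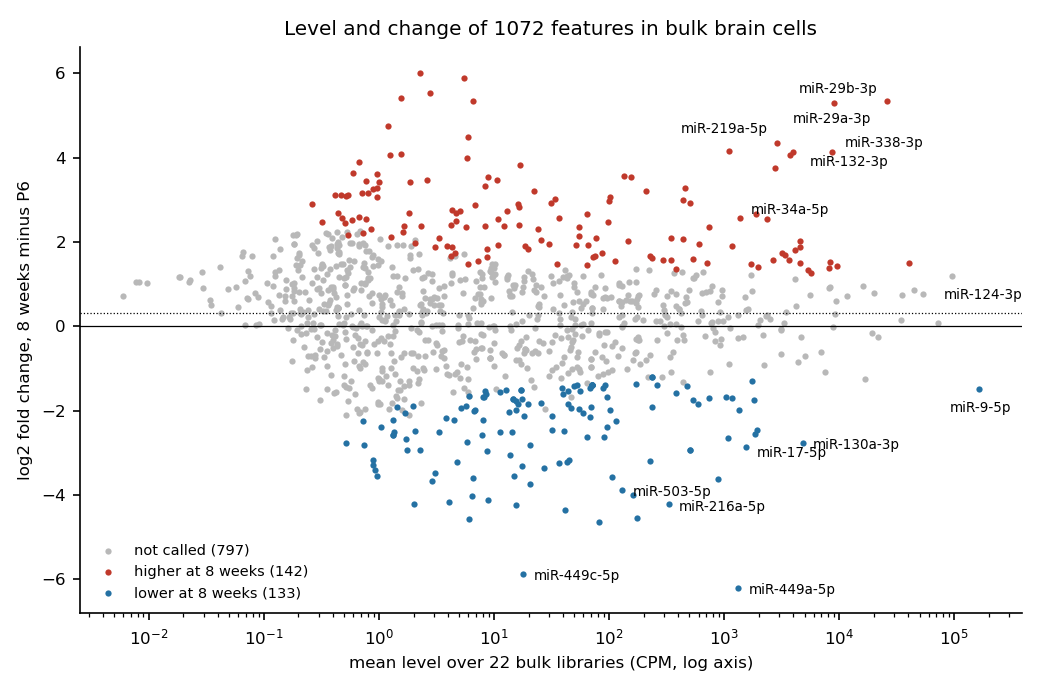
Each point is one of the 1072 features tested, with its mean level over the 22 bulk libraries on the horizontal axis (CPM, log axis) and its log2 fold change, 8 weeks minus P6, on the vertical axis. Red points are the 142 features called higher, blue points the 133 called lower, grey points were not called, and the dotted line is the median of all features (0.32). Among abundant miRNAs, miR-29b-3p, miR-29a-3p, miR-338-3p and miR-132-3p lie far above the line, and miR-449a-5p, at -6.20, lies lowest.

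The most abundant miRNA of the neonatal brain fraction lost its lead. miR-9-5p, a miRNA of neural progenitors that is also made by young neurons and astrocytes, lay between 238691 and 281121 CPM at P6 (median 271620), and between 68786 and 86908 CPM at 8 weeks (median 75996). Every 8 week library was thus below every P6 library. It took 26.7% ± 1.23 of all counts at P6 (SD, n = 10) and 7.70% ± 0.614 at 8 weeks (SD, n = 12). On the log2 scale the change was -1.48 ± 0.18 (SE; adjusted p = 0.0193), and without P6 female mouse 3 it was -1.40, which did not pass (adjusted p = 0.0587). Nor did it pass in females alone, in males alone or with libraries thinned to the lowest total (adjusted p of 0.0521 to 0.123). Its partner strand miR-9-3p (median 26354 CPM at P6 and 8220 CPM at 8 weeks) had ranges without overlap and a log2 fold change of -1.25 ± 0.18, which did not pass (adjusted p = 0.254). It did pass with library size alone (-1.56, adjusted p = 0.00307), with edgeR (-1.39, adjusted p = 0.00023), with DESeq2 (-1.34, adjusted p = 0.0119) and with the 22 bulk libraries alone (-1.39, adjusted p = 0.000936). Of the 4 neural progenitor miRNAs tested, 1 was lower (2 with edgeR or library size alone) and 0 were higher, with a median of -1.14.

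By contrast, miR-124-3p, the most abundant miRNA of neurons, held the largest share of the adult counts, at 12% ± 1.93 (SD, n = 12), against 6.71% ± 2.09 at P6 (SD, n = 10). It lay between 40038 and 114643 CPM at P6 (median 64273), and between 89882 and 147712 CPM at 8 weeks (median 122254). The ranges overlapped through P6 female mouse 5, whose library was the highest of its group. The log2 fold change of 1.20 ± 0.16 (SE) did not pass the threshold (adjusted p = 0.309), but without P6 female mouse 5 it was 1.42 and passed (adjusted p = 0.013).

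Most other miRNAs that dominate brain libraries did not pass the test. let-7c-5p, of the let-7 family that times development, had a median of 82374 CPM at P6 and of 66123 CPM at 8 weeks. Its log2 fold change was 0.08 ± 0.11 and its sign turned under other scalings (-0.24 with library size alone). let-7a-5p (0.85 ± 0.08), let-7f-5p (0.75 ± 0.08), let-7b-5p (0.15 ± 0.15, and -0.16 with library size alone), let-7i-5p (-0.25 ± 0.10) and miR-181a-5p (0.77 ± 0.10) were not called either, each with an adjusted p of 1. Of 23 let-7 strands tested, 0 were higher and only the passenger strand let-7c-1-3p was lower (-2.13 ± 0.17, adjusted p = 4.53e-08). miR-26a-5p, which rises as neural cells differentiate, did pass. It lay between 21876 and 28553 CPM at P6 and between 45000 and 62358 CPM at 8 weeks without overlap, a log2 fold change of 1.5 ± 0.08 (adjusted p = 5.42e-08).

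The miR-29 family, known to repress collagen and DNA methyltransferase mRNAs and to build up in maturing neurons and glia, rose as a whole. All 7 strands tested were higher at 8 weeks, with a median log2 fold change of 3.54 against 0.32 over all features, and the share of counts held by the family went from 0.243% ± 0.0329 (SD, n = 10) to 6.76% ± 0.806 (SD, n = 12). miR-29b-3p lay between 1206 and 1829 CPM at P6 (median 1384), and between 34523 and 58881 CPM at 8 weeks (median 44871). The lowest adult library thus stood far above the highest neonatal one, and the group means differed 32.8-fold. It rose by 5.34 ± 0.13 on the log2 scale (SE; adjusted p = 1.37e-40).

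miR-29a-3p lay between 425 and 659 CPM at P6 (median 512), and between 14117 and 19161 CPM at 8 weeks (median 16078), a log2 fold change of 5.31 ± 0.11 (adjusted p = 1.19e-44). miR-29c-3p went from a median of 414 CPM (range 365 to 570) to a median of 4548 CPM (range 4246 to 5682), a change of 3.75 ± 0.09 (adjusted p = 2.00e-39). Neither showed overlap between the ages, and among adults the library of 8 week male mouse 4 was the highest for both. The passenger strand miR-29a-5p, at a median of 26.8 CPM at P6 and 248 CPM at 8 weeks, rose by 3.54 ± 0.12. The family is encoded at a pair of loci, and the strands of both moved one way. At chr6:31062660-31063093 (minus strand, miR-29a and miR-29b-1) 4 of 4 strands were higher, and at chr1:195037040-195037634 (plus strand, miR-29b-2 and miR-29c, within exons of the noncoding transcript A330023F24Rik and opposite a UTR of Cd46) 4 of 4 were higher. The mature miR-29b-3p is made from both loci and counts in each.

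Most of this rise came late. At P15 miR-29b-3p lay between 5619 and 10483 CPM (median 7187), between the ranges of the other ages, with a log2 fold change of 2.21 ± 0.13 from P6 to P15 (adjusted p = 2.79e-11) and of 3.14 ± 0.12 from P15 to 8 weeks (adjusted p = 2.97e-25). Over all features, 20 (1.87%) were higher and 18 (1.68%) lower at P15 than at P6, and 65 (6.06%) were higher and 53 (4.94%) lower at 8 weeks than at P15.

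The miRNAs of differentiating oligodendrocytes, the myelin-forming cells, showed an earlier course. miR-219a-5p and miR-338-3p are known to promote oligodendrocyte differentiation by repressing factors that keep precursors dividing. miR-219a-5p lay between 116 and 571 CPM at P6 (median 315), between 1423 and 5078 CPM at P15 (median 3625) and between 2836 and 6788 CPM at 8 weeks (median 4924). All P15 and adult libraries were above all P6 libraries, while the P15 and adult ranges overlapped. The log2 fold change from P6 to 8 weeks was 4.34 ± 0.18 (SE; adjusted p = 1.40e-26).

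miR-219a-2-3p changed early, with medians of 560 CPM at P6, 6572 CPM at P15 and 6365 CPM at 8 weeks. It rose by 3.63 ± 0.19 on the log2 scale from P6 to P15 (adjusted p = 2.82e-18), and the difference from P15 to 8 weeks was 0.44 ± 0.17 (adjusted p = 1). miR-338-3p, from an intron of the kinase gene Aatk (chr11:120014765-120014862, minus strand), lay between 658 and 1349 CPM at P6 (median 1030), and between 10021 and 19842 CPM at 8 weeks (median 14805). It rose in both intervals, by 2.58 ± 0.12 to P15 (adjusted p = 5.79e-18) and by 1.56 ± 0.11 after it (adjusted p = 1.44e-05), and by 4.14 ± 0.12 in all (adjusted p = 8.44e-35). Its partner miR-338-5p (median 151 CPM at P6 and 1840 CPM at 8 weeks) rose by 4.15 ± 0.14 (adjusted p = 3.36e-30). Of the 6 oligodendrocyte strands tested, 4 were higher and 1 was lower. The lower one was miR-219a-1-3p, the passenger strand of the other miR-219a locus, with a mean of 8.28 CPM at P6 and 1.35 CPM at 8 weeks (-2.22 ± 0.31, adjusted p = 0.000594).

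miR-132 and miR-212, which are transcribed together in response to neuronal activity through CREB and shape dendrites and synapses, were higher in 3 of 3 strands tested. miR-132-3p lay between 265 and 1216 CPM at P6 (median 417), between 681 and 2022 CPM at P15 (median 1246), and between 5214 and 11342 CPM at 8 weeks (median 6725). The highest neonatal library was that of P6 female mouse 5, and no P6 library reached the adult range. It rose by 4.14 ± 0.21 on the log2 scale (SE; adjusted p = 1.05e-21), of which 2.90 ± 0.19 fell between P15 and 8 weeks (adjusted p = 3.96e-13). miR-212-3p lay between 82.3 and 171 CPM at P6 (median 106), and between 537 and 1148 CPM at 8 weeks (median 666), a change of 3.0 ± 0.14 (adjusted p = 8.03e-21). The passenger strand miR-132-5p rose by 3.01 ± 0.25 from a median of 9.79 CPM to 54.0 CPM (adjusted p = 1.24e-10). Both precursors lie at chr11:75173388-75173747 on the plus strand, within an intron of the noncoding gene 1700016P03Rik.

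**Figure D2:**
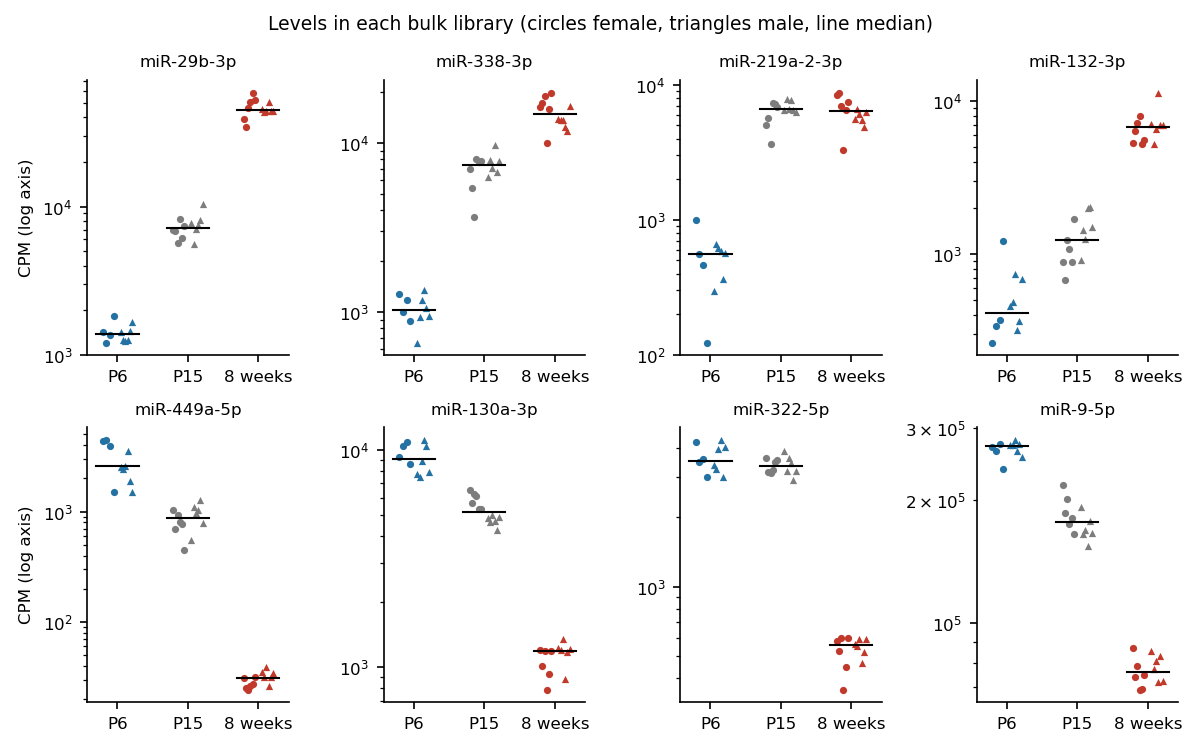
Each point is 1 bulk library (circles female, triangles male) at P6, P15 or 8 weeks, with its level in CPM on a log axis of its own in each panel, and the line is the median of the age. miR-219a-2-3p has like medians at P15 and 8 weeks (6572 and 6365 CPM), while miR-29b-3p and miR-132-3p gain most after P15, and miR-322-5p has lost little at P15 (medians 3535, 3332 and 558 CPM from P6 to 8 weeks).

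The miRNAs of neurons at large were mixed. Of the 17 strands tested, 7 were higher and 0 lower, with a median log2 fold change of 1.20. There were 9 higher and 0 lower without P6 female mouse 5, 7 and 1 with edgeR, and 6 and 1 with library size alone. miR-138-5p, which is enriched at synapses and limits dendritic spine size, lay between 4055 and 8375 CPM at P6 (median 5792), and between 10993 and 17576 CPM at 8 weeks (median 12098), without overlap (1.42 ± 0.13, adjusted p = 0.0045), but the change did not pass with library size alone (1.11, adjusted p = 0.534), the 22 bulk libraries alone, DESeq2, females alone or males alone (adjusted p from 0.0527). At P15 its median was 16619 CPM. The largest change among these strands was that of miR-129-1-3p, by 3.27 ± 0.19 (adjusted p = 3.11e-17) from a mean of 99.5 CPM to 754 CPM. miR-129-2-3p rose by 2.67 ± 0.20 (adjusted p = 4.50e-11) from 604 CPM to 2976 CPM. miR-218-2-3p rose by 2.73 ± 0.26 (adjusted p = 5.88e-08) from 4.31 CPM to 20.2 CPM, and the other strands that passed were miR-138-1-3p, miR-138-2-3p and miR-153-5p.

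Some abundant neuronal miRNAs did not pass. miR-137-3p, a regulator of neuronal maturation, lay between 3040 and 11690 CPM at P6 (median 4871), and between 2784 and 4603 CPM at 8 weeks (median 3554). The ranges overlapped, and the difference of -0.25 ± 0.16 turned to 0.04 without P6 female mouse 5 (adjusted p = 1 in both fits). miR-218-5p, known from motor neurons, had medians of 4464 CPM and 6223 CPM, with a difference of 0.74 ± 0.13 (adjusted p = 1). The neuronal list held 9.03% ± 2.73 of the counts at P6 (SD, n = 10) and 15.4% ± 1.92 at 8 weeks (SD, n = 12), and single libraries ran from 5.65% to 15.3% at P6 and from 12.3% to 17.9% at 8 weeks.

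The miR-17 family and its clusters, known for their activity in dividing cells, fell broadly. Of 25 strands tested, 20 were lower and 0 were higher, with a median log2 fold change of -2.04 (18 to 20 lower when any 1 mouse was left out). miR-20a-5p lay between 1984 and 5592 CPM at P6 (median 3655), and between 308 and 567 CPM at 8 weeks (median 445). It changed by -2.56 ± 0.14 on the log2 scale (SE; adjusted p = 2.10e-15). miR-17-5p went from a median of 3226 CPM (range 1818 to 4713) to 330 CPM (range 219 to 395), a change of -2.86 ± 0.14 (adjusted p = 1.29e-19). Neither overlapped between the ages, although the P6 libraries themselves spread over more than a doubling.

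miR-92a-3p, which belongs to the same transcript but carries another seed, lay between 1451 and 4809 CPM at P6 (median 3037), and between 461 and 949 CPM at 8 weeks (median 707), a change of -1.75 ± 0.14 (adjusted p = 7.98e-06). At P15 miR-17-5p had a median of 1649 CPM with a range that overlapped that of P6, and the difference from P6 did not pass (-0.99 ± 0.13, adjusted p = 1). In the host transcript Mir17hg (chr14:115043671-115044506, plus strand) 11 of 11 strands were lower. In the paralogous cluster of chromosome X (chrX:52741693-52742567, minus strand) 6 of 8 were lower, and in that of chromosome 5 (chr5:138165321-138165818, minus strand) 4 of 6. The mature miR-92a-3p and miR-19b-3p count in both Mir17hg and the chromosome X cluster, so these are not separate measurements. Of the 6 miRNAs with a matched sequence and the seed AAAGUGC, all 6 were lower.

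The family of miR-130 and miR-301 was lower in 6 of 7 strands, with 0 higher and a median of -2.76. miR-130a-3p, its most abundant member and known from blood vessels and germinal zones, lay between 7488 and 11110 CPM at P6 (median 9070), and between 787 and 1354 CPM at 8 weeks (median 1188). The groups did not overlap, and it changed by -2.76 ± 0.16 on the log2 scale (SE; adjusted p = 2.67e-15). miR-301a-3p, from an intron of Ska2 (chr11:87113004-87113089, plus strand), lay between 1610 and 2639 CPM at P6 (median 2012), and between 227 and 290 CPM at 8 weeks (median 260), a change of -2.65 ± 0.09 (adjusted p = 1.25e-25). The paralogues miR-130b-3p and miR-301b-3p were scarcer. miR-130b-3p fell by 4.0 ± 0.14 on the log2 scale (median 348 CPM to 16.9 CPM, adjusted p = 1.23e-28), and miR-301b-3p fell by 3.16 ± 0.16 (median 88.5 CPM to 7.82 CPM, adjusted p = 7.74e-19).

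The cluster of miR-322 and miR-503 on the X chromosome (chrX:53047997-53054349, minus strand), whose members are known to restrain cell cycle genes during muscle differentiation, was lower in 11 of 13 strands with 0 higher and a median of -2.14 (9 to 11 lower when any 1 mouse was left out). miR-322-5p lay between 2994 and 4352 CPM at P6 (median 3535), between 2918 and 3886 CPM at P15 (median 3332) and between 356 and 601 CPM at 8 weeks (median 558). The P6 and P15 ranges overlapped and their difference did not pass (-0.26 ± 0.10, adjusted p = 1), while the fall from P15 to 8 weeks did (-2.20 ± 0.10, adjusted p = 1.22e-16). miR-503-5p went from a median of 262 CPM (range 232 to 316) through 123 CPM at P15 to 14.8 CPM (range 6.67 to 23.3), a change of -3.87 ± 0.16 from P6 to 8 weeks (adjusted p = 6.40e-25).

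miR-351-5p, the relative of miR-125 in this cluster, fell by 3.20 ± 0.14 on the log2 scale from a median of 466.5 CPM to 39.3 CPM (adjusted p = 1.05e-21). miR-450a-5p fell by 2.14 ± 0.16 from a median of 56.7 CPM to 10.6 CPM (adjusted p = 3.78e-09). Of the 6 miRNAs tested with a matched sequence and the seed AGCAGCA, miR-322-5p and miR-15b-5p were lower, 0 were higher and 4 were not called. miR-15b-5p had a mean of 912 CPM at P6 and of 215 CPM at 8 weeks (-1.75 ± 0.14, adjusted p = 5.39e-06), the single call among 11 strands of the miR-15/16 family.

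The family of miR-34 and miR-449, known for the multiciliated cells that line the ventricles, split. Of 10 strands tested, 2 were higher and 3 were lower (4 lower with edgeR or library size alone). Of the 4 tested miRNAs with a matched sequence and the seed GGCAGUG, 1 was higher and 2 were lower. That count leaves out miR-34c-5p and miR-449b. miR-449a-5p, from an intron of the gene Cdc20b (chr13:113037534-113037624, plus strand), lay between 1492 and 4479 CPM at P6 (median 2579), between 448 and 1274 CPM at P15 (median 867) and between 24.2 and 39.1 CPM at 8 weeks (median 31.3). The ranges of all 3 ages were separate, and the P6 mean was 94.8-fold above the adult mean. The log2 fold change of -6.20 ± 0.28 (SE; adjusted p = 9.57e-26) was the most negative of the comparison. miR-449c-5p, from the same intron, had 2782 counts in the 10 P6 libraries together and 37 in the 12 adult ones (-5.87 ± 0.50, adjusted p = 2.49e-13), and miR-449b, whose ranges overlapped, was lower as well (-3.28 ± 0.46, adjusted p = 2.14e-05).

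miR-34a-5p, which carries the seed of miR-449a-5p but is made in many cell types under the control of p53, went the other way. It lay between 311 and 579 CPM at P6 (median 441), and between 1698 and 3352 CPM at 8 weeks (median 2078), without overlap (2.57 ± 0.10, adjusted p = 7.07e-22). Its passenger strand miR-34a-3p rose by 3.82 ± 0.22, from a median of 2.33 CPM to 26.4 CPM (adjusted p = 8.35e-18). miR-34b-5p and miR-34c-5p, the partners of miR-449 in ciliogenesis, had overlapping ranges. miR-34b-5p had medians of 548 CPM and 549 CPM, and miR-34c-5p of 272 CPM and 278 CPM. Their differences of 0.12 ± 0.18 and 0.27 ± 0.20 did not pass (adjusted p = 1 for both), and both turned negative with library size alone (-0.20 and -0.04) and in females alone (-0.41 and -0.22).

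A neighbouring set on chromosome 11 is best known from the pancreas, where miR-216 and miR-217 mark acinar cells. miR-216a-5p lay between 111 and 1419 CPM at P6 (median 779), and between 15.7 and 29.5 CPM at 8 weeks (median 23.3). The P6 libraries spread over more than a 10-fold range, and still all lay above the adult ones. It changed by -4.22 ± 0.50 on the log2 scale (SE; adjusted p = 8.34e-08). miR-217-5p went from a median of 394 CPM (range 63.8 to 759) to 10.4 CPM (range 3.96 to 13.3), a change of -4.55 ± 0.60 (adjusted p = 5.73e-07). miR-216b-5p went from a median of 168 CPM (range 19.4 to 385) to 4.33 CPM (range 1.04 to 6.65), a change of -4.64 ± 0.71 (adjusted p = 1.07e-05). In the cluster of miR-216a and miR-217 (chr11:28757012-28763835, plus strand, within introns of the noncoding gene Gm12082) 4 of 4 strands were lower.

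Other miRNAs of the neonatal cells were also lower at 8 weeks. miR-3473e lay between 62.9 and 123 CPM at P6 (median 80.3), and between 1.33 and 5.91 CPM at 8 weeks (median 3.69), a change of -4.36 ± 0.26 (adjusted p = 1.16e-18), most of it by P15 (-3.18 ± 0.20, adjusted p = 3.72e-14). Reads of miR-3473 members are shared among close copies, so its own level is uncertain. miR-483-3p, from an intron of the fetal growth factor gene Igf2, had 915 counts at P6 and 27 at 8 weeks in all libraries together (-4.56 ± 0.36, adjusted p = 2.47e-13). miR-135b-5p, known to act on Wnt signalling, lay between 1519 and 3213 CPM at P6 (median 1898), and between 337 and 673 CPM at 8 weeks (median 490), without overlap (-1.70 ± 0.18, adjusted p = 0.000503). With it miR-135b-3p (-4.03 ± 0.37) and miR-135a-1-3p (-3.74 ± 0.25) made 3 lower strands of 5 tested in that family. Its most abundant strand, miR-135a-5p, was not called. It lay between 6079 and 8119 CPM at P6 and between 3025 and 4768 CPM at 8 weeks. miR-181d-5p, whose abundant relative miR-181a-5p was not called, had a median of 1822 CPM at P6 and 443 CPM at 8 weeks (-1.67 ± 0.12, adjusted p = 4.52e-06).

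**Figure D3:**
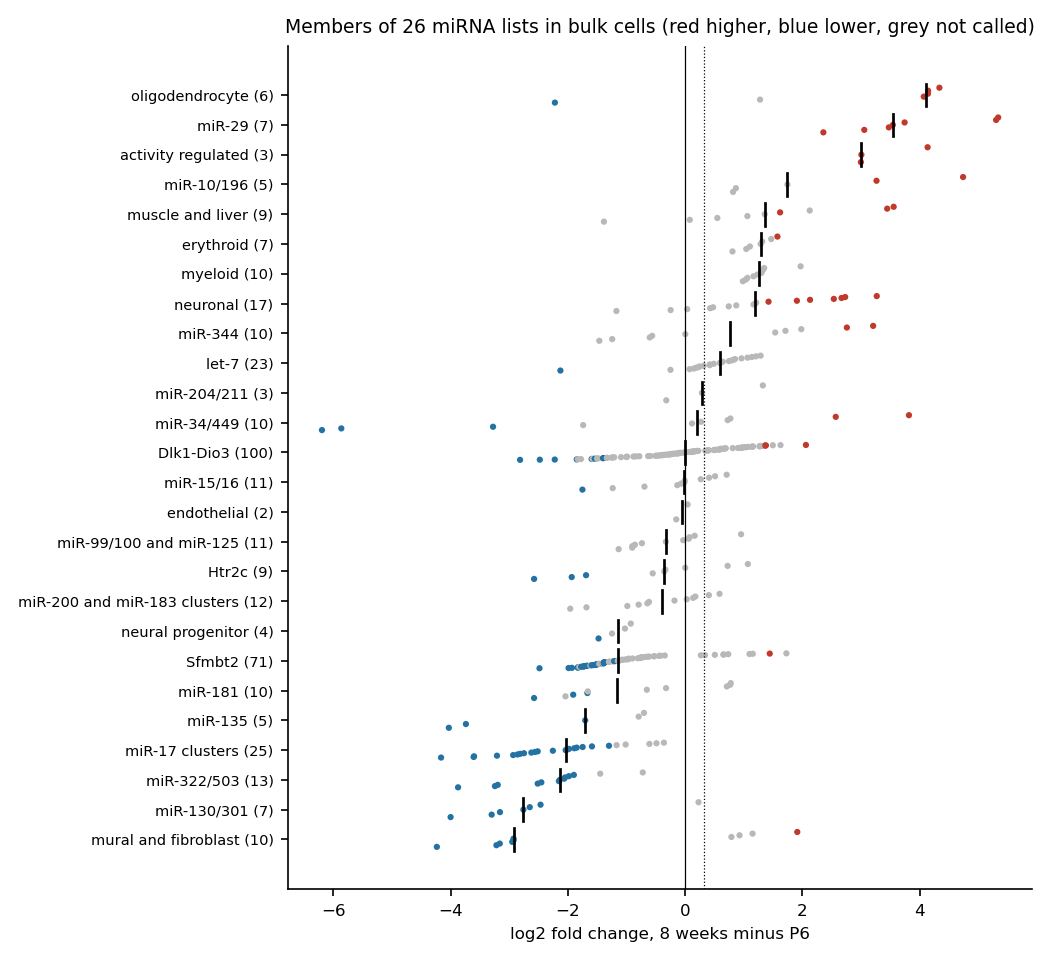
Each row is one of 26 miRNA lists with the number of tested strands in brackets, each point is a strand with its log2 fold change, 8 weeks minus P6, in bulk cells (red called higher, blue called lower, grey not called), the black tick is the median of the list and the dotted line the median of all features (0.32). The oligodendrocyte, miR-29 and activity-regulated lists lie at the top (medians 4.11, 3.54 and 3.01), and the list of miR-322 and miR-503, that of miR-130 and miR-301 and the mural and fibroblast list at the bottom (medians -2.14, -2.76 and -2.93).

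In the large imprinted and repeated clusters most strands did not pass the test. Of 100 strands of the Dlk1-Dio3 cluster of chromosome 12, expressed from the maternal allele, 3 were higher and 8 lower, with a median of -0.01, but without P6 female mouse 5 there were 8 higher and 5 lower, with library size alone 1 and 14, and with edgeR 1 and 18. miR-127-3p, among its most abundant members, went from a median of 5252 CPM (range 3404 to 7166) to 10393 CPM (range 8038 to 13818). Its change of 1.38 ± 0.15 (adjusted p = 0.0345) did not pass without 8 week female mouse 2, 8 week female mouse 4, 8 week male mouse 4 or P6 female mouse 1 (adjusted p of 0.051 to 0.0788). It also failed to pass under 9 other settings, among them edgeR, DESeq2, the 22 bulk libraries alone, each sex alone and library size alone (adjusted p of 0.0501 to 0.814). miR-376b-5p (2.06 ± 0.14, adjusted p = 3.96e-10) and miR-668-3p (1.37 ± 0.15, adjusted p = 0.0287) were the other higher strands. miR-136-5p, with medians of 5731 CPM and 9300 CPM, did not pass (0.90 ± 0.17, adjusted p = 1). In the cluster within the Polycomb-related gene Sfmbt2, 28 of 71 strands were lower and 1 was higher, with a median of -1.15 (25 to 28 lower when any 1 mouse was left out, and 26 without P6 female mouse 5). With library size alone 33 were lower and 0 higher, and with edgeR 34 and 0. miR-467e-5p, for example, lay between 213 and 316 CPM at P6 and between 62.8 and 108 CPM at 8 weeks (-1.37 ± 0.09, adjusted p = 0.000511). Several strands of that cluster have identical counts, so the 28 are not separate measurements.

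Lists with few or no calls complete the account of the brain's own miRNAs. Of 11 strands of the let-7 companions miR-99/100 and miR-125, and of 12 strands of the epithelial miR-200 and miR-183 clusters, 0 passed in either direction by TREAT (medians -0.33 and -0.40), while edgeR called 1 strand lower in each and library size alone gave 2 lower in the former (median -0.64) and 0 in the latter (median -0.76). The median of the miR-200 and miR-183 clusters ran from -0.96 to 0.26 when any 1 mouse was left out. In the Htr2c gene, a serotonin receptor of the choroid plexus, 3 of 9 strands were lower and 0 higher. These were miR-1298-5p (-1.69 ± 0.28, adjusted p = 0.0311), miR-448-3p (-1.93 ± 0.30, adjusted p = 0.00607) and miR-1912-5p (-2.58 ± 0.48, adjusted p = 0.00392), and the ranges of all 3 overlapped between the ages. In males alone miR-448-3p was at -1.32 and did not pass (adjusted p = 0.569), against -2.55 in females, and miR-1298-5p was at -0.97 in males and -2.41 in females. The difference between the sexes did not pass for either (adjusted p = 1). miR-204-5p, an abundant choroid plexus and eye miRNA, did not pass (median 9090 CPM at P6 and 9083 CPM at 8 weeks). Of 10 strands of the miR-344 cluster, 0 were lower (1 with edgeR or library size alone) and 2 were higher, miR-344b-3p (3.21 ± 0.19, adjusted p = 9.67e-17) and miR-344d-3p (2.76 ± 0.35, adjusted p = 1.42e-05). In the Hox clusters, which pattern the hindbrain and spinal cord, 2 of 5 strands were higher (1 with edgeR), miR-196a-5p and miR-196b-5p. miR-196a-5p had overlapping ranges, with 27 counts at P6, from 3 libraries, and 74 at 8 weeks. The ratio of its group CPM was 3.39 (counting interval 2.16 to 5.48). miR-10a-5p (0.82 ± 0.41) and miR-10b-5p (0.87 ± 0.37) did not pass (adjusted p = 1 for both). miR-196b-5p had 3 counts in the 10 P6 libraries and 124 in the 12 adult libraries, a ratio of the group CPM of 51.1 (95% interval from counting error 17.1 to 251), and without P6 female mouse 2, which held 2 of the 3 counts, the ratio was 137.

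The bulk fraction was checked against markers of cells it should lack or hold in part. Of 10 myeloid strands, 0 passed by TREAT, with a median of 1.27. miR-142a-3p, a defining miRNA of blood-derived and microglial cells, lay between 84.3 and 152 CPM at P6 and between 129 and 266 CPM at 8 weeks in bulk cells, against means of 14366 CPM and 12709 CPM in microglia. miR-146a-5p did not pass (1.33 ± 0.17, adjusted p = 0.108), but passed without P6 female mouse 1 (1.45, adjusted p = 0.0464), male mouse 1 (1.45, adjusted p = 0.0337) or male mouse 6 (1.43, adjusted p = 0.0497). The summed level of the myeloid list was 0.0281% of counts at P6 and 0.0513% at 8 weeks, and its part in the other results was not tested.

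Among red blood cell miRNAs a single strand passed. miR-451a lay between 1245 and 1789 CPM at P6 (median 1487), and between 2182 and 5058 CPM at 8 weeks (median 3584). It was the 1 strand of 7 to pass (1.58 ± 0.24, adjusted p = 0.0409), and it did not pass without 8 week female mouse 1, 3 or 6 or 8 week male mouse 2 or 3 (adjusted p of 0.0505 to 0.0668), or with library size alone (1.26, adjusted p = 0.402), DESeq2 size factors, repeated entries summed, no filter on low counts or either sex alone (adjusted p from 0.0509). Its partner miR-144-3p had overlapping ranges (0.81 ± 0.25, adjusted p = 1). miR-126a-3p, from the endothelial gene Egfl7, lay between 9444 and 32982 CPM at P6 and between 10981 and 19962 CPM at 8 weeks and did not pass (-0.15 ± 0.20, adjusted p = 1).

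Mural cell and fibroblast miRNAs went in opposite directions. Of 10 strands, 6 were lower and 1 was higher (6 and 0 with library size alone). miR-199a-3p lay between 713 and 1355 CPM at P6 (median 915), and between 79.4 and 119 CPM at 8 weeks (median 103), a change of -2.93 ± 0.12 (adjusted p = 3.08e-23). miR-199b-3p has nearly the same counts and is no separate measurement. miR-214-3p, from the same transcript as one of the miR-199a copies (Dnm3os), fell by 4.24 ± 0.37 on the log2 scale from a median of 31.1 CPM to 1.31 CPM (adjusted p = 1.17e-11). miR-145a-5p of smooth muscle went up, from a median of 604 CPM (range 286 to 764) to 1704 CPM (range 1186 to 2278), by 1.91 ± 0.27 (adjusted p = 0.00304; 1.60 and adjusted p = 0.0552 with library size alone, and adjusted p = 0.0511 in females alone), while its cluster partner miR-143-3p did not pass (0.93 ± 0.25, adjusted p = 1). Of 9 muscle and liver strands 3 were higher (2 with library size alone), led by the muscle miRNA miR-1a-3p, which lay between 16.1 and 35 CPM at P6 and between 144 and 358 CPM at 8 weeks (3.56 ± 0.15, adjusted p = 5.14e-24). Where these strands came from was not tested.

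Among the 53 unannotated candidates tested, which the authors predicted from the reads and named by chromosome, 10 were higher and 3 lower. Over all 1072 features the shares were 13.2% higher and 12.4% lower, together 25.7%. The candidate chr10_4182 had 0 counts in all 10 P6 libraries and 234 in the 12 adult libraries, present in each of them. The candidate chr14_14675 lay between 113 and 277 CPM at P6 and between 12.8 and 35.9 CPM at 8 weeks (-2.38 ± 0.17, adjusted p = 2.83e-10). The annotated miR-1895 had 62 counts at P6 and 633 at 8 weeks, a ratio of 12.6 (counting interval 9.72 to 16.7). Of those 62 counts, 27 came from P6 male mouse 3 and 25 from P6 male mouse 6, and without the one or the other the ratio was 20.2 or 19.4. miR-145b had 55 and 588 counts, a ratio of 13.2 (10.02 to 17.8).

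Among precursors with a RefSeq position, 41 clusters with gaps of at most 10 kb held at least 3 tested strands. Of these, 18 held no called strand, 6 held a single one and 17 held more. In 15 of the 17 the called strands shared one direction, and 2 held calls in both. The latter were parts of the Dlk1-Dio3 region (chr12:109563692-109595388 and chr12:109709060-109747960, plus strand). The strands listed for Sfmbt2, with 28 lower and 1 higher, are not among the 41 clusters. Base composition differed little between the sets, with a median GC content of 48.9% for the sequences called higher, 47.6% for those called lower and 50% for those not called, and a median length of 22 bases in each.

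To ask whether the changes were particular to the bulk fraction, the change with age in bulk cells was compared with that in microglia of the same mice. The change differed by more than 2-fold for 156 features (14.6%), of which 85 (7.93%) moved upward in bulk cells relative to microglia and 71 (6.62%) downward, and with library size alone these counts were 109 and 60. In microglia alone, 77 features (7.18%) were higher and 101 (9.42%) lower at 8 weeks. miR-29b-3p rose in both fractions, with microglial means of 13184 CPM at P6 and 51502 CPM at 8 weeks, but by 2.82 ± 0.17 more in bulk cells (SE; adjusted p = 7.13e-15). In microglia it was thus already high at P6, where the bulk libraries had a median of 1384 CPM. miR-29a-3p also rose by more in bulk cells (2.10 ± 0.14, adjusted p = 6.96e-10), whereas the difference for miR-29c-3p did not pass (1.02 ± 0.12, adjusted p = 0.95).

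miR-219a-5p (3.04 ± 0.26, adjusted p = 1.54e-09), miR-338-3p (2.29 ± 0.16, adjusted p = 9.85e-10) and miR-132-3p (2.18 ± 0.29, adjusted p = 0.000669) rose more in bulk cells too. miR-34a-5p parted the fractions, with a rise in bulk cells and microglial means of 3560 CPM at P6 and 1701 CPM at 8 weeks, a difference of 3.09 ± 0.13 (adjusted p = 2.41e-21). Its passenger strand miR-34a-3p gave a difference of 4.45 ± 0.26 (adjusted p = 2.42e-18). Larger still were those of miR-2137 (5.61 ± 0.34, adjusted p = 1.88e-18) and miR-5121 (5.01 ± 0.26, adjusted p = 3.44e-21). The miR-5121 hairpin lies in exons of Rpl13a and of the small nucleolar RNA gene Snord33 on the same strand. Which transcript its reads came from was not tested. In bulk cells miR-2137 had medians of 32.5 CPM and 37.9 CPM, and its microglial mean went from 1357 CPM to 28.0 CPM.

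On the other side, miR-322-5p fell in bulk cells and had microglial means of 6405 CPM and 7238 CPM (difference -3.13 ± 0.13, adjusted p = 6.93e-22). miR-503-5p (-3.58 ± 0.19, adjusted p = 1.88e-18) and miR-450a-5p (-3.31 ± 0.19, adjusted p = 8.41e-17) of the same cluster followed. miR-17-5p had microglial means of 5907 CPM at P6 and 2913 CPM at 8 weeks (difference -2.31 ± 0.17, adjusted p = 3.65e-09) and miR-20a-5p also differed (-2.12 ± 0.18, adjusted p = 7.84e-07), whereas miR-92a-3p did not pass (-1.26 ± 0.19, adjusted p = 0.345). miR-181a-2-3p was a passenger strand that fell in bulk cells and rose in microglia (-4.02 ± 0.29, adjusted p = 5.52e-14).

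Other neonatal miRNAs showed no such difference past the threshold. For miR-449a-5p the difference was -0.58 ± 0.41, with microglial means of 1232 CPM at P6 and 16.5 CPM at 8 weeks. For miR-130a-3p it was -0.30 ± 0.22, for miR-301a-3p -0.05 ± 0.12, for miR-199a-3p -0.38 ± 0.16 and for miR-9-5p -0.16 ± 0.24 (adjusted p = 1 for each of these 5).

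**Figure D4:**
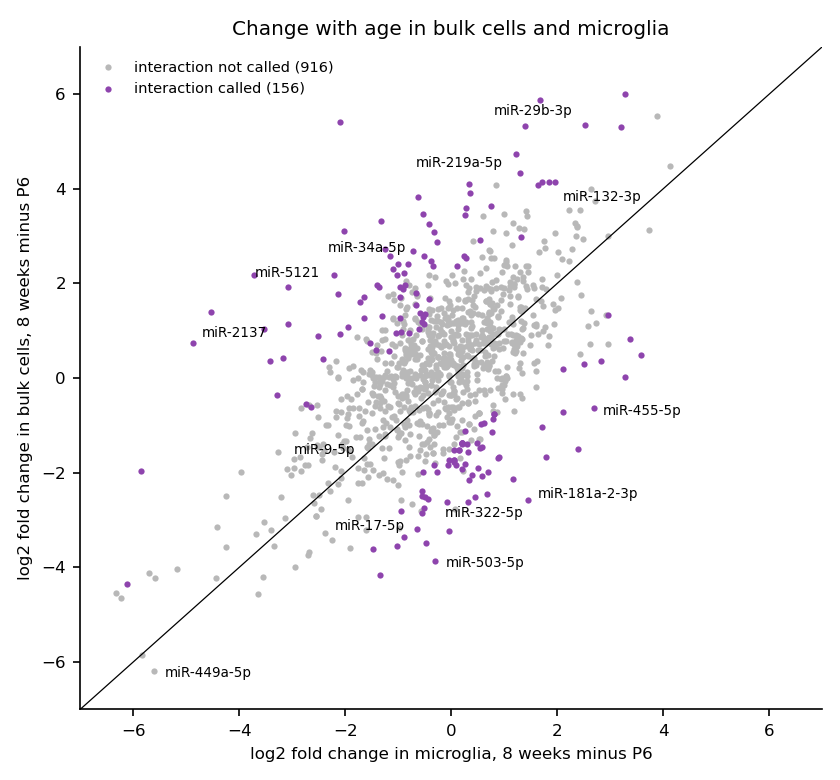
Each point is one of the 1072 features, with its log2 fold change, 8 weeks minus P6, in microglia on the horizontal axis and in bulk cells on the vertical axis, and the line marks equal change. Purple points are the 156 features whose change differed between the fractions, such as miR-34a-5p, miR-2137 and miR-5121 above the line and miR-322-5p, miR-503-5p and miR-181a-2-3p below it. miR-449a-5p, not called, lies near the line at -5.61 in microglia and -6.20 in bulk cells.

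The change with age was not found to differ between male and female bulk cells. By TREAT in limma, 0 features passed in either direction, 7 had an unadjusted p under 0.05, and without the fold change threshold 70 had one and 0 passed (lowest adjusted p = 0.158). For miR-34b-5p the change was 0.65 in males and -0.41 in females, and for miR-34c-5p it was 0.76 and -0.22, differences that did not pass either.

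Finally, the balance of the strands cut from one precursor was compared, as a ratio within a library does not depend on the scaling of libraries. Of 323 precursors with both strands tested, the ratio moved toward the 5p strand in 12 (3.72%) and toward the 3p strand in 16 (4.95%) at 8 weeks, together 28 (8.67%), by TREAT in limma. miR-124 was the most abundant of those named here. Its passenger strand miR-124-5p lay between 25.8 and 67.6 CPM at P6 (median 47.9), and between 12.7 and 22.5 CPM at 8 weeks (median 15.9). The guide strand miR-124-3p had gone the other way in its medians, and the log2 ratio of 5p to 3p changed by -2.38 ± 0.20 (SE; adjusted p = 1.59e-05).

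miR-27a shifted alike (-2.77 ± 0.34, adjusted p = 0.00047), from a base of 60 counts of the 5p strand at most in any library. In 5 of the 28 precursors (miR-106a, miR-1199, miR-216b, miR-351 and miR-449a) a strand had at most 3 counts in every library of an age, so their ratios rest on the prior count and no shift is read from them. The 3p strands of miR-449a and miR-216b, for example, had 46 and 54 counts at P6 and 0 and 2 at 8 weeks in all libraries together. Of the other 23, 11 moved toward the 5p strand and 12 toward the 3p strand. The shifts toward the 5p strand were led by miR-544 (2.54 ± 0.25, adjusted p = 6.39e-05) and miR-301a (2.53 ± 0.35, adjusted p = 0.0025). For miR-544 the 3p strand went from a median of 145 CPM to 43.3 CPM, while the 5p strand had medians of 6.35 CPM and 12.4 CPM. For miR-296 (2.13 ± 0.16, adjusted p = 1.59e-05) both strands were lower in their medians, the 3p strand from 216 CPM to 13.8 CPM and the 5p strand from 33.3 CPM to 10.5 CPM.

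**Figure D5:**
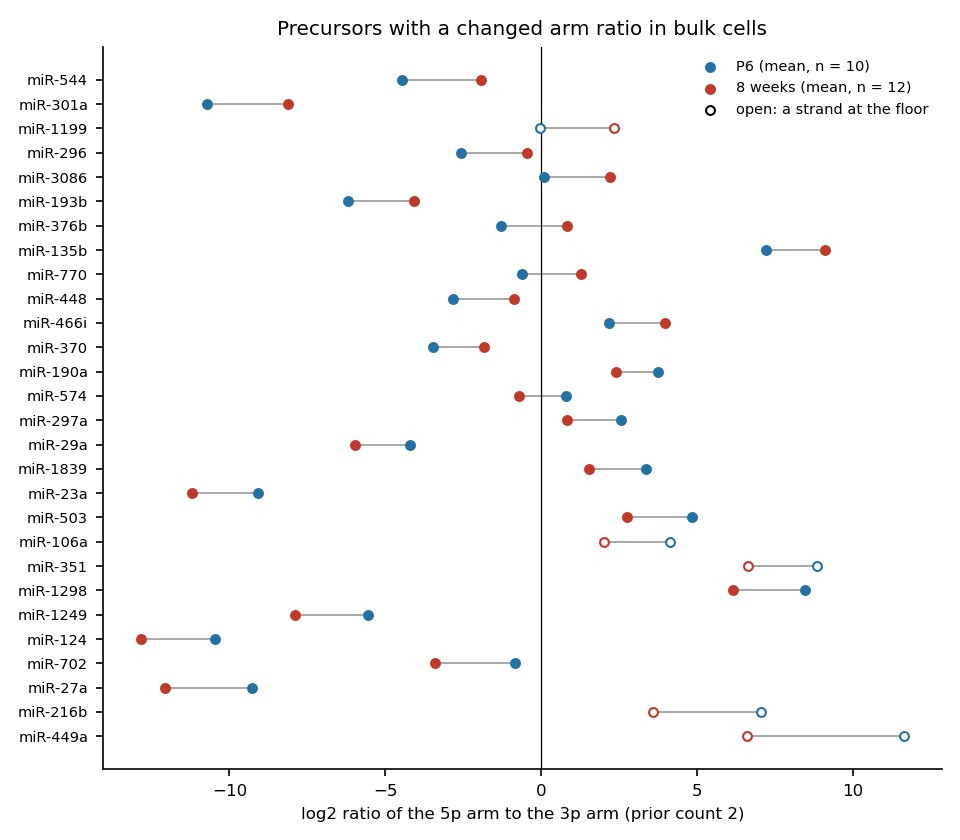
For each of the 28 precursors whose strand ratio changed, the mean log2 ratio of the 5p strand to the 3p strand (prior count 2) is shown for P6 (blue, n = 10) and 8 weeks (red, n = 12). Points right of 0 are precursors with more of the 5p strand, and open points mark the 5 precursors with a strand of at most 3 counts in every library of an age. Among filled points, miR-27a and miR-124 move left by 2.77 and 2.38, and miR-544 and miR-301a move right by 2.54 and 2.53.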

How the data were processed

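Small RNA counts of the bulk and microglial fractions were analysed. The authors removed adapters with fastp (version 0.20.0 per their processing notes), matched reads to miRBase with miRDeep2 and mapped the rest to the mouse genome (GRCm38). The deposited table holds whole-number counts per miRNA, not normalised. A read is counted for every precursor it matches, so related miRNAs can share reads. Of 2029 entries under 1885 names, 79 names were repeated and the entry with the largest total was kept, which retained 48.9% to 51.0% of counts in P6 bulk and 54.1% to 56.6% in 8 week bulk libraries. A further 3 candidates identical to others were dropped, which left 1882 features. The most alike libraries still differed beyond sampling noise (chi-square per degree of freedom 16.5), and each library counts as 1 sample. Groups and mouse numbers were read from the sample titles. Both libraries of P6 female mouse 6 were left out, as the authors had removed 1 outlier mouse, whose identity was inferred and is uncertain.

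The features tested reached 1 CPM in 5 or more of 68 libraries (1019 annotated and 53 candidates). Counts were scaled by TMM (factors 0.749 to 1.23 in bulk) and fitted with limma-voom in R 4.3.3 (package versions limma 3.58.1 and edgeR 4.0.16) as 12 group means with mouse as random effect. Contrasts were averaged over the sexes and tested by TREAT against a log2 fold change of 1 with Benjamini-Hochberg adjustment at 0.05. CPM values use the plain library total. Strand ratios were tested in limma on log2 CPM with a prior count of 2. The mouse number pairs the fractions of one brain and nothing across ages. Same-mouse deviations correlated positively in 32 of 34 mice (mean 0.0737, consensus correlation 0.124). On simulated counts, 96.3% of 188 features changed by a log2 fold change of 2.5 were recovered among 952 tested, with 0 unchanged features called. For strand ratios 92.3% of 104 were recovered among 283. Floors and counting intervals reflect counting error alone, since without molecular identifiers several reads may stem from 1 molecule. Positions are those of GRCm38 with GENCODE M21 and RefSeq annotation.

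Named miRNAs were the 10 largest changes in each direction without overlap and with at least 10 CPM, the 10 most abundant, the up to 4 most abundant of each of 26 lists, the 5 largest strand and fraction differences in each direction and the 2 largest candidates in each direction, of which a subset is printed, plus called members of the lists. Members and lists were chosen with earlier results of these data known. Alternatives were no threshold, edgeR's quasi-likelihood test, DESeq2 1.42.0, other scalings and filters, summed entries, thinned counts, quality weights, each sex alone, no block and leaving out each mouse.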

Additional observations from a re-analysis of the deposited data

Results flagged for a closer look

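Within each age and sex, a library was singled out when its gap to the nearest other library was large against the range of the group (Dixon's test). Of 312 such tests on 78 miRNAs and candidates, 21 met the limit, and chance gives about 1 in 20 groups. The library of P6 female mouse 5 was the highest of its 4 females for miR-132-3p (1216 CPM, others 265 to 374 CPM), miR-137-3p (11690 CPM, others 3040 to 4443 CPM) and miR-218-5p (7189 CPM, others 3799 to 4374 CPM). The library of 8 week male mouse 4 was the highest of its 6 males for miR-132-3p (11340 CPM, others 5214 to 7028 CPM), miR-212-3p (1148 CPM, others 631 to 798 CPM), miR-29a-3p (19160 CPM, others 14940 to 16370 CPM), miR-29b-3p (50710 CPM, others 43560 to 45360 CPM) and miR-29c-3p (5682 CPM, others 4326 to 4831 CPM), and the lowest for miR-130a-3p (884.7 CPM, others 1179 to 1354 CPM). With that mouse left out, the activity-regulated list still had 3 strands higher.

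The library of 8 week male mouse 6 was the highest of its 6 males for miR-126a-3p (19250 CPM), miR-138-5p (15290 CPM) and miR-146a-5p (332.4 CPM). Single libraries stood apart for miR-138-5p (8 week female mouse 2, 17580 CPM), miR-503-5p (8 week male mouse 3, 18.91 CPM), let-7i-5p (P6 male mouse 2, 33100 CPM), miR-29a-3p (P6 male mouse 2, lowest at 427.1 CPM), miR-34b-5p (P6 male mouse 4, 803.2 CPM), chr14_14675 (P6 female mouse 3, 276.7 CPM) and miR-145b (P6 female mouse 2, 2.247 CPM). miR-196b-5p was above 0 at P6 in female mouse 2 (0.2644 CPM) and male mouse 4 (0.1459 CPM) alone, both under the floor.

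The change with age differed between bulk cells and microglia, in limma's test of that difference, for 28 of the 78. On the log2 scale, relative to microglia, bulk cells moved upward for miR-2137 (5.608), miR-5121 (5.012), miR-34a-3p (4.448), miR-1895 (3.938), miR-196b-5p (3.528), miR-34a-5p (3.093), miR-219a-5p (3.04), miR-29b-3p (2.817), chr10_4182 (2.723), miR-219a-2-3p (2.439), miR-338-5p (2.436), miR-338-3p (2.289), miR-132-3p (2.184), miR-29a-3p (2.103) and miR-3473e (1.769). They moved downward for miR-181a-2-3p (-4.021), miR-503-5p (-3.575), miR-181b-2-3p (-3.455), miR-455-5p (-3.341), miR-450a-5p (-3.306), miR-322-5p (-3.125), miR-351-5p (-2.546), miR-17-5p (-2.313), miR-204-5p (-2.218), miR-20a-5p (-2.116), miR-467e-5p (-1.858), chr14_14675 (-1.837) and miR-146a-5p (-1.636). The call of miR-3473e was lost in 11 of the fits that left out 1 mouse and under 3 other settings (adjusted p of 0.0529 with DESeq2 size factors, 0.0784 with P6 female mouse 6 included and 0.102 with no filter), that of chr10_4182 was lost in 5 of the former, and that of miR-146a-5p was lost with library size alone (-1.49, adjusted p = 0.112).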

How the results depend on the processing

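Without a fold change threshold, limma called 416 features higher and 294 lower in the bulk comparison, 383 upward and 192 downward between fractions, and 62 and 93 strand ratios toward 5p and 3p. When 1 mouse was left out, the bulk calls ranged from 135 to 161 higher and from 120 to 131 lower, those between fractions from 73 to 89 and from 68 to 73, and the strand ratios from 9 to 14 and from 14 to 18, while 0 differed between the sexes each time. Other tests of the bulk comparison gave 129 higher and 193 lower (edgeR), 109 and 145 (DESeq2), 121 and 142 (22 bulk libraries only), and 116 and 117 under a filter that asked for 10 counts in 10 libraries. Without the block for mouse there were 141 higher and 133 lower calls in bulk, and 81 and 70 between the fractions. Of the 78 miRNAs and candidates examined, 8 lost their call under at least 1 setting other than leaving out a mouse. These were miR-127-3p, miR-133a-3p, miR-138-5p, miR-145a-5p, miR-451a, miR-9-5p, miR-448-3p and chr17_20934, and the cause was not tested. A call was gained by miR-9-3p (22 bulk libraries, DESeq2, edgeR, library size alone), miR-181b-2-3p (library size alone) and miR-146a-5p (quality weights, and without P6 female mouse 1, male mouse 1 or male mouse 6), and by miR-124-3p without P6 female mouse 5. No fit without a fold change threshold is counted here. Some miRNAs passed in each sex with unequal folds (females, males; the difference did not pass, adjusted p = 1 in limma): miR-216b-5p (-5.44, -3.85), miR-217-5p (-5.15, -3.95), miR-34a-3p (4.50, 3.14), miR-483-3p (-5.30, -3.82) and miR-135b-3p (-3.37, -4.69). Differences close to 0 changed sign: let-7c-5p (-0.0643 with the 22 bulk libraries, -0.0392 with DESeq2, -0.0838 with edgeR, -0.0470 with repeated entries summed, -0.24 with library size alone), let-7b-5p (-0.0357 with edgeR, -0.16 with library size alone), miR-34b-5p (-0.0234 with the 22 bulk libraries, -0.0424 with edgeR, -0.00627 with entries summed, -0.41 in females, -0.20 with library size alone), miR-34c-5p (-0.22 in females, -0.0418 with library size alone), miR-204-5p (-0.13 in females, -0.0230 with library size alone) and miR-137-3p (from -0.333 to 0.0410 when 1 mouse was left out, the latter without P6 female mouse 5). Depth limits the 84 calls under 10 CPM in both groups, and the ages differ in depth. Nothing in the labels gives a sequencing batch.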
